A study of Arabidopsis thaliana with 4 samples.

Results

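The EVEN probe set against the long noncoding RNA APOLO was compared with the LACZ control probes, peak by peak, over the 5 nuclear chromosomes of Arabidopsis thaliana. The members are the nuclear peaks of the EVEN 1 and LACZ 1 lists, 33016 of the 107288 nuclear peaks deposited for the series. They fall into classes by overlap of at least 1 bp. Of 20470 EVEN peaks, 16662 overlapped no LACZ peak and 3808 overlapped at least 1, and of 12546 LACZ peaks, 3331 overlapped an EVEN peak and 9215 did not. The lists made with the ODD probes played no part in this sorting, so they give a separate look at each class.

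All libraries came from APOLO overexpressing lines, that is, Col-0 plants carrying the full-length APOLO region behind the 35S promoter in pB7WG2, grown in long days on solid MS medium of reduced strength. The 35S promoter is active in most plant tissues, and plants without the transgene were not analysed here. The sources used here do not say how many lines or plants a library stands for, nor the tissue or plant age. By the labels the groups differ in the probes used: EVEN (1 library, EVEN 1), LACZ (1 library, LACZ 1) and ODD (2 libraries, ODD 1 and ODD 2). With 1 library on each side, all values below describe these libraries, and no test across replicates exists for EVEN against LACZ.

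In chromatin isolation by RNA purification (ChIRP-seq), biotinylated oligonucleotides that pair with a chosen RNA pull down crosslinked chromatin, and the recovered DNA is sequenced. Probes against lacZ, a bacterial gene that plants lack, show what DNA is recovered without a target RNA. APOLO is transcribed next to the kinase gene PID and is known in Arabidopsis for auxin-dependent control of chromatin looping at that locus, for R-loops at distant loci and for work with Polycomb proteins and DNA methylation. Probe sets are commonly divided into ODD and EVEN pools so that DNA recovered by pairing with a single probe can be recognised by its absence from the other pool.

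The peaks of the lists differed in shape. Nuclear EVEN peaks had a median width of 92 bp and covered 2.32 Mb, while LACZ peaks had a median width of 269 bp and covered 3.80 Mb. No EVEN peak was narrower than 54 bp and no LACZ peak narrower than 200 bp. Estimated from the lowest local background and relative to ODD 1, EVEN 1 held 2.19 times as many fragments, LACZ 1 held 1.31 times and ODD 2 held 2.94 times as many. A fold enrichment is the authors' value, the pileup of fragments at the summit over the local background, with 1 added to both. It is used here only within its own list. The sources used here do not say whether that background came from the same library or from a control. The relative fragment numbers above assume the same library. In EVEN the lowest background was 2.81 fragments, so a pileup of 13 gives a fold of 3.68 and a pileup of 14 a fold of 3.94, which is why many weak peaks share a value.

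EVEN peaks without LACZ made up 81.4% of the EVEN list (95% exact Clopper-Pearson interval 80.9 to 81.9, counting error only, as for every interval given). LACZ peaks without EVEN made up 73.4% of the LACZ list (72.7 to 74.2). These shares define the classes and carry no test, and their order depends on the rule: LACZ was the higher, 88.2% against 82.2% for EVEN, among peaks with −log10 q of at least 5, and also with lists of equal length, 81.4% against 79.3%. The classes differed in strength within the EVEN list: the median fold was 3.41 without LACZ and 3.53 with LACZ, and the 90th percentile was 4.49 and 5.78. A fold of at least 5 was reached by 5.52% of EVEN peaks without LACZ (5.17 to 5.87) and by 13.7% of those with LACZ (12.6 to 14.8). Peaks that the control probes also gave were therefore over-represented at the strong end of the EVEN list, while the bulk of both classes lay close together. EVEN peaks with LACZ were also wider, with a median of 106 bp against 90 bp. In the LACZ list the median folds were 3.04 for peaks with EVEN and 2.90 for peaks without. Its strong ends lay closer together than those of EVEN, with 90th percentiles of 4.56 and 4.15.

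**Figure D1:**
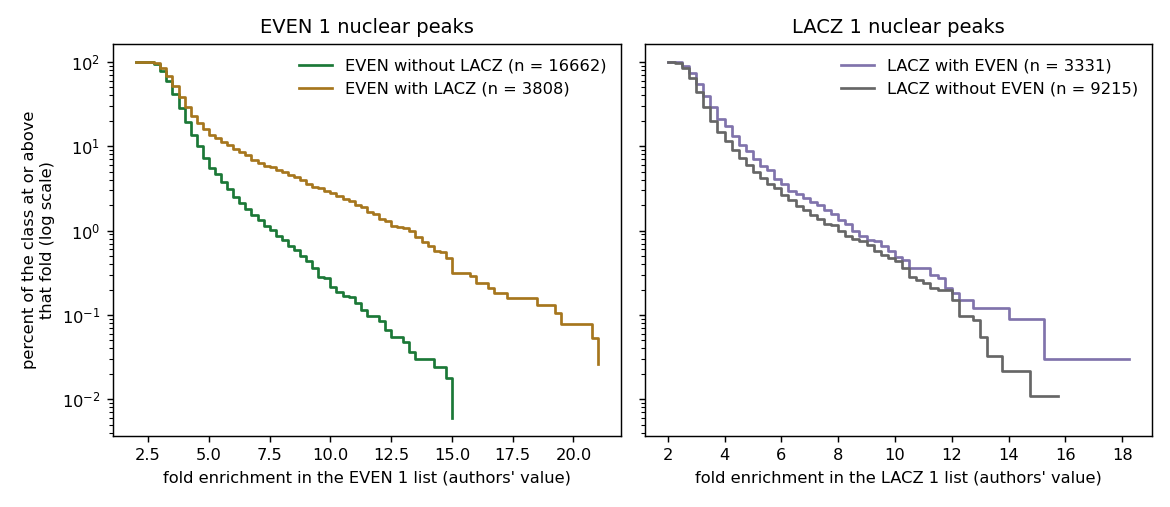
Percent of the peaks of each class (log axis) at or above each fold enrichment, EVEN 1 on the left and LACZ 1 on the right; each curve is 1 class of 1 library. At a fold of 5 the EVEN curves stand at 13.7% with LACZ and 5.52% without, and the LACZ curves lie closer together, at 7.08% and 4.88%.

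Cut into 10 equal parts by fold, the EVEN list overlapped LACZ most in its strongest part. There, at folds from 4.73 to 21.2, 32.1% of peaks overlapped a LACZ peak. In the second to the seventh part the share lay between 17.1% and 19.9%, and in the weakest part it was 12.5%. The LACZ list declined more evenly, from 34.6% and 35.6% overlapping EVEN in its strongest parts to 15.2% in its weakest. Strong peaks of either list were thus the ones most often found with the other probes. The strongest part was also the widest, with a median width of 168 bp in EVEN and 358 bp in LACZ, against 80 and 237 bp in the weakest, and wider peaks can overlap more. How far width sets these shares was not tested.

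**Figure D2:**
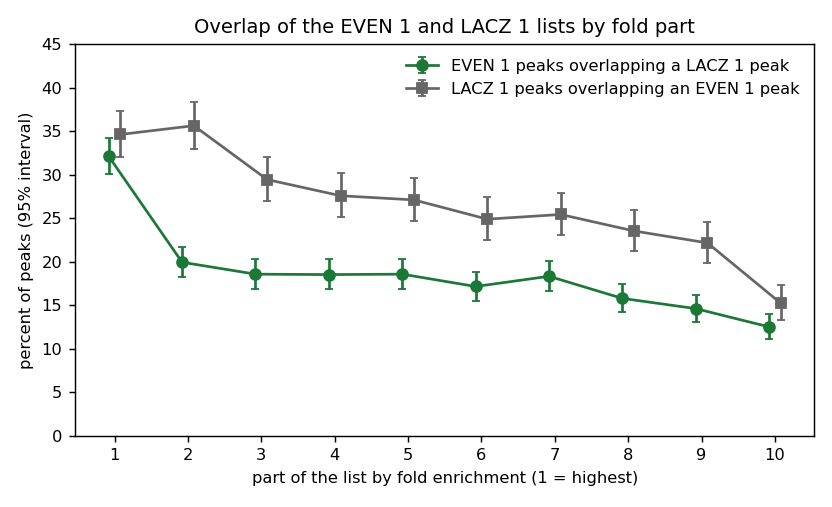
Percent of EVEN 1 peaks (circles) and LACZ 1 peaks (squares) that overlapped the other list, in 10 equal parts of each list from the highest fold (1) to the lowest (10); bars are 95% exact binomial intervals. EVEN drops from 32.1% to 19.9% between the first and the second part and ends at 12.5%, and LACZ falls from 34.6% to 15.2%.

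Most overlapping peaks met by more than their edges, but peak width bears on this. EVEN peaks with LACZ had a median width of 106 bp and LACZ peaks with EVEN one of 304 bp. How far width alone gives the following values was not tested. The 3825 overlapping pairs had summits a median of 90 bp apart (quartiles 39 and 159 bp), and 2163 EVEN peaks, 56.8% of those with LACZ, lay wholly inside a LACZ peak. A single EVEN peak fell in 2890 of the LACZ peaks with EVEN, 2 fell in 396 of them, and 3 or more in 45. EVEN peaks without LACZ lay at a median of 2784 bp from the nearest LACZ peak and at most 91939 bp. LACZ peaks without EVEN lay at a median of 1792 bp from the nearest EVEN peak. Distances for random positions were not computed, so these medians do not show that a class avoids the other list. Of the EVEN peaks without LACZ, 2675, or 16.1%, had a LACZ peak within 500 bp. At the border of the rule, 100 EVEN peaks overlapped LACZ by no more than 10 bp and had a median fold of 3.35, and 90 missed it by no more than 10 bp and had a median fold of 3.22.

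The summits of the classes lay in different places. A summit fell in a protein-coding gene for 79.0% of EVEN peaks without LACZ (78.3 to 79.6), for 71.0% of EVEN peaks with LACZ (69.5 to 72.4) and for 72.4% of LACZ peaks without EVEN (71.5 to 73.3). Other genes, mostly pseudogenes, held 9.25%, 13.9% and 14.8% in the same order. Pericentromeres, the gene-poor stretches around the centromeres, held 20.9% of EVEN peaks without LACZ, 34.3% of those with LACZ and 25.8% of LACZ peaks without EVEN, while they make up 25.2% of the chromosome length. EVEN peaks without LACZ hence had the lowest pericentromeric share, and EVEN peaks with LACZ the highest. On the chromosome arms alone the share in protein-coding genes was 89.1% for EVEN peaks without LACZ (88.6 to 89.6) and 90.2% for those with LACZ (89.0 to 91.3), so the EVEN classes were close there. Within the pericentromeres they stayed apart, at 40.6% without LACZ (39.0 to 42.3) and 34.2% with LACZ (31.6 to 36.8). LACZ peaks without EVEN stayed lower on the arms, at 86.3%. Among peaks with −log10 q of at least 5, the shares in protein-coding genes were 68.8% for EVEN peaks without LACZ and 68.5% for LACZ peaks without EVEN, and the difference seen over all peaks was not detectable there. Summits in long noncoding RNA genes were near 1% in every class, from 0.912% to 1.20%.

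**Figure D3:**
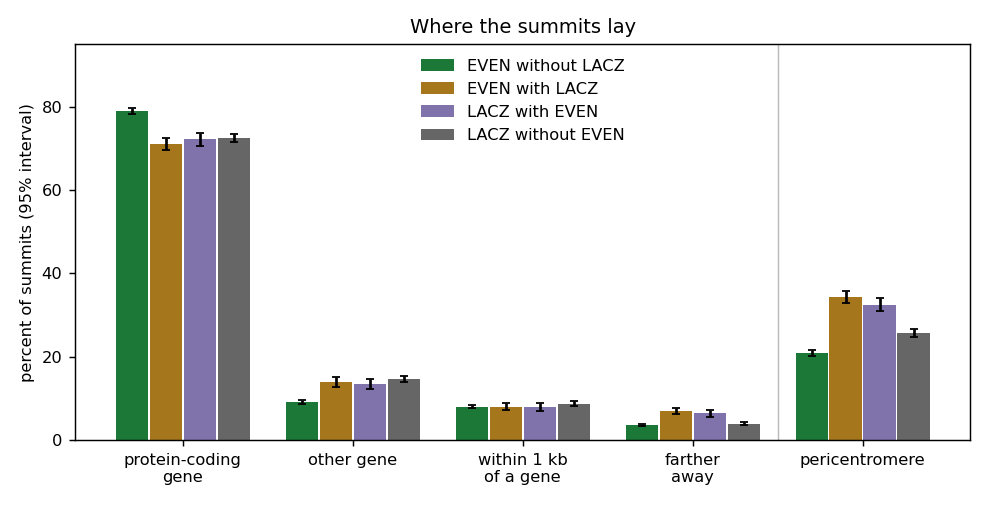
Percent of the summits of each class in protein-coding genes, in other genes, within 1 kb of a gene, farther away, and (right of the line, counted separately) in pericentromeres; bars start at 0 and whiskers are 95% exact binomial intervals. EVEN peaks without LACZ stand highest in protein-coding genes, at 79.0%, and lowest in pericentromeres, at 20.9%.

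Chromosome 2 stood apart. There 21.7% of EVEN peaks overlapped LACZ, against 17.5% to 18.5% on the other chromosomes, and 30.3% of LACZ peaks overlapped EVEN, against 25.3% to 26.4%. Chromosome 2 carries a large, near-identical insertion of the mitochondrial genome next to its centromere, here taken as the stretch from 3.2 to 3.6 Mb, where reads cannot be told from mitochondrial DNA. It held 214 EVEN peaks with a median fold of 8.69, of which 123 overlapped LACZ and 91 did not. It held 104 LACZ peaks with a median fold of 4.18, of which 91 overlapped EVEN. Without the insertion the shares on chromosome 2 were 19.4% for EVEN and 27.4% for LACZ, above the other chromosomes by less than the width of the intervals (18.1 to 20.8 for EVEN, 25.5 to 29.4 for LACZ).

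The ODD lists, which the classes did not use, held peaks of all classes but not equally. ODD 2 had 58146 nuclear peaks covering 12.96 Mb, and ODD 1 had 16126 covering 2.01 Mb. An ODD 2 peak overlapped 56.4% of EVEN peaks without LACZ (55.7 to 57.2), 72.7% of EVEN peaks with LACZ (71.2 to 74.1) and 47.4% of LACZ peaks without EVEN (46.4 to 48.4). In the shorter ODD 1 list the shares were 16.9% (16.3 to 17.4), 29.0% (27.6 to 30.5) and 9.69% (9.09 to 10.3). LACZ peaks with EVEN, the other side of the shared sites, had 79.7% in ODD 2 and 31.9% in ODD 1. The order was the same in both ODD libraries: peaks that EVEN shared with the control were found most often, EVEN peaks without the control next, and LACZ peaks without EVEN least. The intervals of these classes did not overlap in either ODD list. EVEN peaks without LACZ that were in neither ODD list numbered 7183, or 43.1%.

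Width and strength move with these shares. A wider peak can meet more ODD peaks, and LACZ peaks were wider than EVEN peaks. Each peak, ODD peaks included, was therefore also set to 200 bp around its summit. This lengthened most EVEN peaks (median width 92 bp) and shortened most LACZ peaks (median width 269 bp). ODD 2 windows then overlapped 53.3% of EVEN peaks without LACZ, 65.6% of those with LACZ and 38.8% of LACZ peaks without EVEN. For ODD 1 the window shares were 20.1%, 31.5% and 9.53%. At equal width the distance between EVEN peaks without LACZ and LACZ peaks without EVEN was thus larger than at the deposited widths. Among EVEN peaks without LACZ, the share in ODD 2 rose from 46.4% in the narrowest of 4 equal groups of EVEN peaks by width to 71.2% in the widest, and among those with LACZ from 60.2% to 85.1%.

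Within equal parts of fold, the classes kept their order in most places. EVEN peaks with LACZ exceeded EVEN peaks without LACZ in ODD 2 in 10 of 10 parts, by 24.3 percentage points in the strongest and 5.83 in the weakest part. In ODD 1 they did so in 9 of 10 parts, by 31.7 points in the strongest part, and in the weakest part they were lower by 0.899 points. Among EVEN peaks without LACZ the share in ODD 2 climbed with fold, from 49.2% in the weakest part to 67.9% in the strongest, and in ODD 1 from 10.7% to 42.9%. LACZ peaks without EVEN showed no such climb in ODD 2, where the share lay between 44.6% and 49.7% in every part, with 45.6% in the strongest. Stronger EVEN peaks without LACZ were hence found more often by the ODD probes, while stronger LACZ peaks without EVEN were not found more often in ODD 2. In ODD 1 they reached 15.1% in the strongest part against 8.36% in the weakest.

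**Figure D4:**
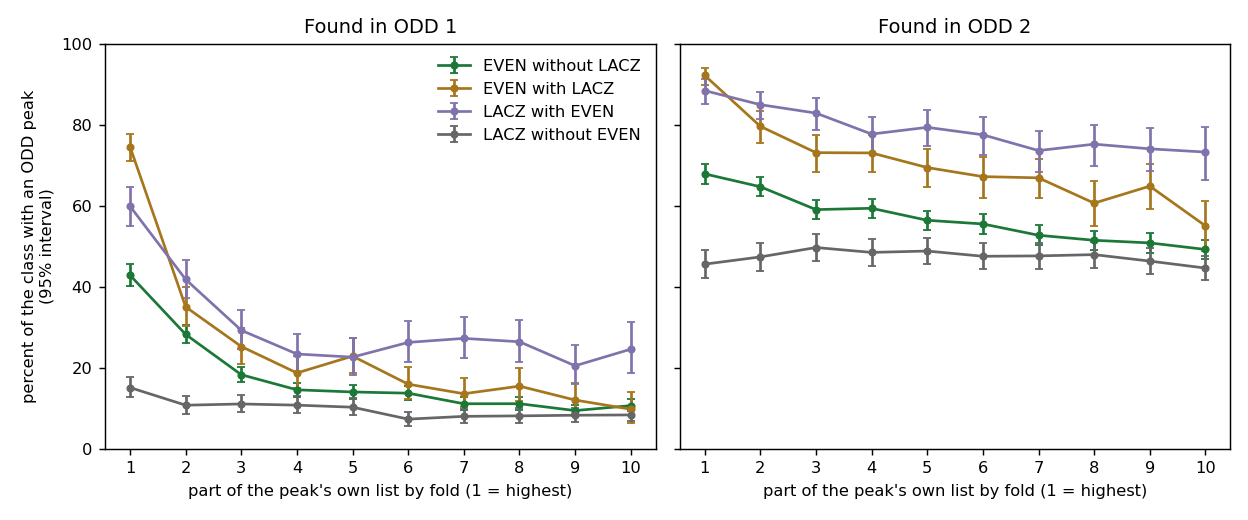
Percent of each class with an overlapping ODD 1 peak (left) or ODD 2 peak (right), in 10 parts of the peak's own list from the highest fold (1) to the lowest (10); whiskers are 95% exact binomial intervals. The curve of EVEN peaks without LACZ rises towards high fold, to 42.9% in ODD 1 and 67.9% in ODD 2, while LACZ peaks without EVEN stay between 44.6% and 49.7% in ODD 2.

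Where an ODD 2 peak was found, its own fold had a median of 3.97 at EVEN peaks without LACZ, 4.22 at EVEN peaks with LACZ and 3.42 at LACZ peaks without EVEN, beside 3.44 for the whole ODD 2 list. The strongest of 10 equal parts of ODD 2 took in 17.5%, 19.5% and 10.1% of these classes. ODD 2 peaks at LACZ peaks without EVEN were therefore of ordinary strength for their list, and those at either EVEN class were above it. In ODD 1 the medians were 5.73, 6.62 and 4.90, beside 4.93 for the whole list.

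The strongest EVEN peaks without LACZ were dominated by the mitochondrial insertion. Of the 12 with the highest fold, from 12.1 to 15.2, 8 lay in the insertion on chromosome 2, among them a peak in AT2G07827 with a fold of 15.2 that was 320 bp from a LACZ peak. The other 4 were a peak in the pseudogene AT5G26283 (9215715 to 9215993 of chromosome 5, fold 14.8), the APOLO gene (fold 14.1), the long noncoding RNA gene AT1G05817 (8319597 to 8319925 of chromosome 1, fold 12.3) and an intergenic peak at 9819306 to 9819538 of chromosome 1 (fold 12.1). Of the 12, 11 had peaks in both ODD lists, and the exception was the intergenic peak, which had none in either. AT1G05817 lay 174 bp from a LACZ peak of fold 4.18, so its distance from the control was short.

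With the insertion set aside, a list of 15 chosen after the values were seen had folds from 10.4 to 14.8, and 13 of them were in ODD 2 and 10 in ODD 1. It included a peak within 1 kb of TIC40, a component of the chloroplast protein import machinery, with a fold of 10.8 (5450030 to 5450310 of chromosome 5). It also included a peak in BLH4, a BEL1-like homeodomain gene, with a fold of 10.8 (10108085 to 10108341 of chromosome 2). The nearest LACZ peaks were 10101 bp from the former and 6132 bp from the latter. TIC40 was in ODD 2 (fold 7.02) and not in ODD 1, and BLH4 was in both, at folds of 4.11 in ODD 2 and 5.67 in ODD 1. A peak in AT3G23930 with a fold of 10.4 was in neither ODD list, so high strength in EVEN did not always bring an ODD peak.

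The 5 widest EVEN peaks without LACZ all lay in genes that the gene table lists as protein-coding, APOLO among them although it is known as a noncoding RNA gene, and all 5 had peaks in both ODD lists. The widest, 956 bp in AT1G49490 (18317698 to 18318653 of chromosome 1), had a fold of only 4.33, with 12.7 in ODD 1 and 7.91 in ODD 2. APOLO was next with 824 bp. HSD2, a hydroxysteroid dehydrogenase gene, followed with 739 bp and a fold of 6.03, then AT4G22495 with 685 bp and 9.98 and AT1G69030 with 651 bp and 5.01. The distance to the nearest LACZ peak ran from 2125 bp at AT4G22495 to 11571 bp at AT1G49490.

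Peaks that ranked high in both EVEN and LACZ held the highest folds of the EVEN list. The leading 8, chosen by the worse of their percentiles, had EVEN folds from 9.73 to 21.2, and all 8 were in both ODD lists. The first, in AT5G10340 (3253117 to 3253249 of chromosome 5), had the highest fold of the EVEN list, 21.2. Its LACZ fold was 15.2, and its folds were 34.9 in ODD 1 and 15.4 in ODD 2, so this site was prominent with all probes, control included. AT2G00340, an RNA gene close to the start of chromosome 2 (9685 to 10241), had a fold of 15.7 in EVEN and 15.03 in LACZ. An intergenic peak at 4005922 to 4006133 of chromosome 4 had 20.8 and 11.0, and AT2G16586 had 18.4 and 9.95. Another lay within 1 kb of MIR5642b, a microRNA gene near the start of chromosome 2, with 16.4 and 8.89. AT2G07787 and AT2G07638 lay in the mitochondrial insertion, and 5 of the 8 were pericentromeric.

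The strongest LACZ peaks without EVEN were in the ODD lists about as often as their whole class. The top 8 had folds from 12.8 to 15.8, and 1 of these peaks was in ODD 1 and 4 were in ODD 2. Over all LACZ peaks without EVEN the shares were 9.69% in ODD 1 and 47.4% in ODD 2. The highest, within 1 kb of the transcribed pseudogene AT5G36903 (14555552 to 14555900 of chromosome 5), was in neither, and nor was the next, in AT1G52696 with a fold of 14.5. Named protein-coding genes among the 8 were SKdZeta, a shaggy-like kinase related to BIN2 of the brassinosteroid pathway, with a fold of 13.2, and CRY1, a blue light receptor, with 12.9. Both were in ODD 2 at low folds, 2.49 and 3.17. AT3G58240 (fold 13.1) was the 1 in both ODD lists, and AT2G37440 (12.9) was in ODD 2. The remaining ones were an intergenic peak on chromosome 2 (13246917 to 13247307, fold 13.5) and a peak near the pseudogene AT2G05700 (12.8), both absent from the ODD lists. The 3 widest, in AT3G28315, AT5G51270 and AT3G30280, measured 1079, 1038 and 956 bp at folds from 2.71 to 3.69.

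APOLO and the genes reported as its targets were next examined for how far their EVEN peaks lay from the control. The APOLO peak (AT2G34655, 14596715 to 14597538 of chromosome 2) had a pileup of 86 fragments over a background of 5.16, and the nearest LACZ peak was 8011 bp away. Probes against APOLO can pair with APOLO DNA, transgene included, as well as with the RNA, and the lists do not separate these. PID, which encodes the kinase PINOID that sets the polarity of PIN auxin carriers, had 3 EVEN peaks between 14590243 and 14591403, at 1539 to 2518 bp from that same LACZ peak, and 2 of them were in ODD 2. WAG2, a related kinase gene, had 3 EVEN peaks with folds from 3.41 to 4.20, the nearest LACZ peak being 4615 to 5783 bp away, and all 3 were in ODD 2. RHD6, a transcription factor gene of root hair initiation, had 1 EVEN peak (24795335 to 24795415 of chromosome 1, fold 3.94), in both ODD lists, with 5.20 in ODD 1 and 4.37 in ODD 2, and 3522 bp from LACZ. AZG2, a purine and cytokinin transporter gene, was different: its LACZ peak (20466625 to 20466880 of chromosome 5) overlapped 1 of the 4 EVEN peaks and lay 15, 123 and 941 bp from the others. Apart from APOLO itself, the EVEN folds at these genes ran from 2.63 to 4.60, within the ordinary range of the EVEN list. Their pileups were 9 to 17 fragments. Over all EVEN peaks without LACZ, 56.4% were in ODD 2 and 16.9% in ODD 1, so an ODD 2 peak at such a site is common.

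Counted by gene, with peaks in the gene body or within 1 kb of it, EVEN and no LACZ peaks were found at 7856 of 27432 nuclear protein-coding genes, 28.6%. The share with EVEN alone was 9.02% when only peaks with −log10 q of at least 5 were used and 19.1% with lists of equal length. Both kinds were found at 26.7%, LACZ alone at 14.7% and neither at 30.0%. At least 1 EVEN peak without LACZ was found at 49.6%, so such a peak at a given gene is common. Genes with both kinds were longer, with a median of 2414.5 bp against 2091 bp for EVEN alone, and across 4 equal groups of gene length the share with both rose from 16.9% to 36.4%. The share with EVEN alone stayed between 27.0% and 30.1%, while the share with neither fell from 42.5% to 19.7%. Longer genes thus had EVEN peaks more often, but then more often together with LACZ peaks. An ODD 1 peak was present at 53.3% of genes with EVEN alone, 60.1% with both, 44.7% with LACZ alone and 36.9% with neither, the same order as for the peaks. ODD 2 reached 92.8% of all genes, which leaves little room for a difference.

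Gene bodies with 3 or more EVEN peaks without LACZ were rare. At least 1 was found in 10069 gene bodies, at least 2 in 2744, at least 3 in 600 and 6, the most, in 5. These 5 were PIN3, AT2G08986, CRK3, AT4G37250 and AT5G60760. PIN3 encodes an auxin efflux carrier that redistributes auxin in gravity responses, and CRK3 a kinase related to the calcium-dependent protein kinases. PIN3 and CRK3 had no LACZ peak in the body or within 1 kb, and the other 3 had at least 1. The PIN3 peaks lay between 26743208 and 26744641 of chromosome 1, with folds from 2.89 to 4.20 and pileups from 10 to 15 fragments. The nearest LACZ peak was at least 9459 bp from each, 4 of the 6 were in ODD 2, and none was in ODD 1. Over all EVEN peaks without LACZ the shares were 56.4% in ODD 2 and 16.9% in ODD 1.

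Auxin genes were common among the genes with EVEN peaks, as genes in general were. In auxin transport, 6 of 17 genes had EVEN alone, or 35.3% beside 28.6% of all genes, among them PIN3, ABCB19, WAG1 and D6PK. Both kinds were found at 8, among them the influx carriers AUX1, LAX1, LAX2 and LAX3, LACZ alone at PIN5 and PIN8, and neither at PIN2. The highest folds of EVEN peaks without LACZ were 4.20 at PIN3 and 4.20 at WAG1, a kinase gene close to PID, then 3.91 at ABCB4 and 3.84 at ABCB19, auxin transporters of the ABC class. WAG1 was in both ODD lists, with 4.73 in ODD 1 and 7.68 in ODD 2. The strongest peaks of ABCB4 and ABCB19 were in neither, and that of ABCB4 lay 163 bp from a LACZ peak of fold 5.14. In auxin synthesis, 6 of 14 genes had EVEN alone (42.9%) and 6 had both. The highest folds there were 4.73 at TAA1, which makes the precursor indole-3-pyruvate, and 4.20 at YUC2, 3.94 at YUC1 and 3.94 at YUC4, monooxygenases that turn it into auxin. YUC2 was in both ODD lists, at 5.67 in ODD 1 and 9.67 in ODD 2.

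Auxin signalling genes had EVEN alone in 8 of 35 cases (22.9% beside 28.6% of all genes). All 8 were Aux/IAA genes, the repressors that auxin removes: IAA2, IAA7, IAA16, IAA17, IAA18, IAA19, IAA28 and IAA29. Of the other listed Aux/IAA genes, IAA3, IAA8, IAA9, IAA12 and IAA26 had both kinds and IAA5 had LACZ alone. Neither kind was found at IAA1, IAA4, IAA6, IAA14 and IAA27. The 12 listed ARF genes, whose transcription factors those repressors bind, had none with EVEN alone, while 2 of the 23 genes with an ARF symbol in the gene table did. Of the 17 genes with both kinds, 10 were ARF genes, which has no test here. IAA2 held the strongest EVEN peak without LACZ (8181551 to 8181801 of chromosome 3), with folds of 8.07 in EVEN, 10.9 in ODD 1 and 13.4 in ODD 2, at 2654 bp from LACZ. ARF3 followed at 7.65, 1740 bp from LACZ, then IAA28 at 5.98 and IAA9 at 5.39. All 4 were in both ODD lists.

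Cytokinin genes had EVEN alone in 8 of 17 cases (47.1% beside 28.6% of all genes): ARR1, ARR3, ARR4, ARR5, ARR6, ARR9, ARR15 and AZG1. Most are type-A response regulators, quickly induced brakes on cytokinin signalling. Other listed type-A genes were not among them: ARR7 had both kinds, ARR8 had LACZ alone, and ARR16 and ARR17 had neither. The highest folds were 4.71 at ARR9, 4.68 at ARR5, 4.64 at the type-B regulator ARR10 and 4.04 at ARR6. ARR9 was in both ODD lists and ARR5 in neither. The receptor genes AHK2 and AHK3 had LACZ alone, and AHK4 had both. In root development, EVEN alone was found at 3 of 17 genes (17.6% beside 28.6% of all genes, WOX5, RSL2 and LBD16) and both at 10, a small list in which the difference from all genes was not tested. The strongest were 5.16 at PLT1, a regulator of the root stem cell niche, 4.73 at CPC, which promotes the root hair fate, 4.46 at RSL2, a root hair factor acting after RHD6, and 4.46 at LBD18, a lateral root factor. The CPC peak was 44 bp from LACZ, and of these 4 peaks only that of LBD18 was in an ODD list, ODD 2.

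Genes of chromatin regulation gave mixed counts, with shares of EVEN alone close to the 28.6% of all genes. In DNA methylation, EVEN alone was found at 4 of 17 genes (23.5%, CMT2, DDM1, DML2 and DML3) and both kinds at 10, in a list of long genes with a median of 6061 bp. The highest folds were 5.12 at NRPE1, the largest subunit of RNA polymerase V, 4.73 at CMT3, a methyltransferase of CHG sites, 4.70 at RDR2, which makes double-stranded RNA, and 4.39 at AGO4, which carries the small RNAs. Among Polycomb components EVEN alone was found at 4 of 13 genes (30.8%, MEA, RING1A, RING1B and BMI1A), and neither kind at CLF, VRN2, MSI1 and AT1G06770. The highest folds were 4.58 at BMI1A, 4.26 at LHP1, which reads the Polycomb mark, 3.68 at MEA and 3.53 at RING1A. Known Polycomb target genes had the same count, 4 of 13, namely FLC, STM, LEC1 and ABI3. Their highest folds were 5.81 at KNAT2, 4.46 at ABI3, a seed maturation factor with 5 EVEN peaks without LACZ, 4.45 at KNAT1 and 4.42 at AP3. ABI3 was in both ODD lists, at 6.15 in ODD 1 and 11.5 in ODD 2, and 5951 bp from LACZ.

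The lists taken for comparison were not alike and lay on both sides of the 28.6% of all genes with EVEN alone. Photosynthesis genes had the lowest share with EVEN alone, 3 of 19 (15.8%, LHCB3, LHCA1 and LHCA3), in short genes with a median of 1510 bp, and LACZ alone at 5. Their highest folds were 4.73 at LHCA2 and at LHCA3, 4.21 at LHCB3 and 3.76 at LHCA4, all antenna proteins. Housekeeping genes had one of the highest shares, 6 of 10 (60%), none with both kinds and 3 with LACZ alone (UBQ10, PP2AA3 and UBC9). They included AT5G60390, whose peak (24288876 to 24289212 of chromosome 5) had folds of 8.20 in EVEN, 11.4 in ODD 1 and 12.99 in ODD 2, and ACT7, an actin gene, with 5.42. ACT8 had 3.49 and TUB6, a tubulin gene, 3.22. The share with EVEN alone in these housekeeping genes thus exceeded that of each auxin list, and lists of 10 to 35 genes move by several percentage points with each gene.

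**Figure D5:**
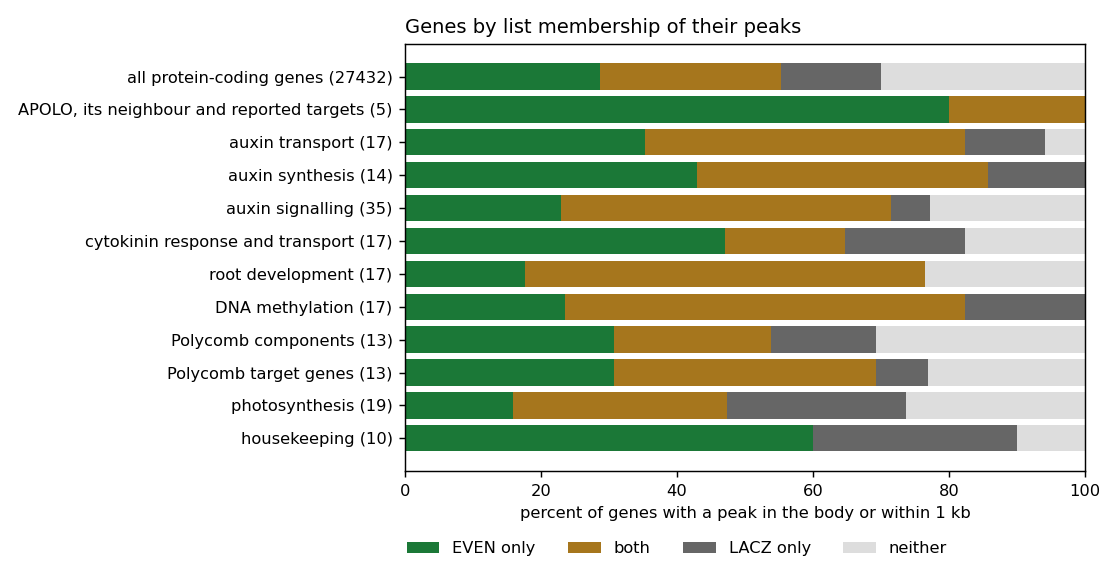
Percent of the genes of each list (number in brackets) with EVEN peaks alone, EVEN and LACZ peaks, LACZ peaks alone or neither, in the gene body or within 1 kb; each bar sums to 100 and the top bar is all 27432 nuclear protein-coding genes. EVEN alone takes 28.6% of all genes, 15.8% in photosynthesis, 60% in housekeeping and 80% of the 5 APOLO genes, which were chosen for their reported link to APOLO.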

How the data were processed

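ChIRP-seq peaks were analysed for 4 libraries, EVEN 1 and LACZ 1 as the comparison and ODD 1 and ODD 2 as lists outside it. The submitters' processing notes name CASAVA 1.8.2, Trimmomatic, Bowtie2 and MACS2 and the TAIR10 build; no source used here gives the calling options or says whether a control library entered the calls. The authors deposited 1 peak list per library, none pooled. Per the file headers each peak has a pileup signal at its summit, a fold enrichment over the background around it, a −log10 p-value and a −log10 q-value. The highest q-value was 0.0493 in EVEN 1 and 0.0384 in LACZ 1 by the deposited values. Read totals were not used here, so depth is known only relatively. It was taken from the lowest background (pileup plus 1, divided by the fold, minus 1) divided by the shortest peak, since MACS2 adds 1 to both terms. This assumes that the background came from the library itself.

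Peaks were matched in Python 3.11.15 with numpy 2.4.6, pandas 2.3.3 and scipy 1.17.1, and the overlap code was tested on simulated intervals. Genes came from a RefSeq table of TAIR10.1, none of whose coordinates are printed. Summits within 200 bp of a gene edge were least frequent at a shift of 0 bp (13.0%, median over shifts up to 3000 bp 16.7%). The table gives no strand or exons, so summits could not be split into exonic, intronic and untranslated ones, and no genome sequence was used here. Of 177 listed genes all were found by locus and 174 by symbol. Each pericentromere reached 3 Mb to both sides of its chromosome's point of lowest coding gene density. Named were the 12 strongest and 5 widest EVEN peaks without LACZ, the 8 best shared peaks, the 8 strongest and 3 widest LACZ peaks without EVEN, up to 4 genes per list by fold, and APOLO, PID, WAG2, AZG2 and RHD6. Members and lists were chosen with earlier results of these data known. No p-values were computed. Alternatives changed the threshold, list length, overlap rule, gene window, ODD library and regions used.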

Additional observations from a re-analysis of the deposited data

Results flagged for a closer look

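Peaks on the mitochondrial genome, which the comparison leaves out, took a larger share of the EVEN list than of the control list. They numbered 192 of 20692 EVEN 1 peaks, 0.928% (95% exact interval 0.802 to 1.07), against 63 of 12658 LACZ 1 peaks, 0.498% (0.383 to 0.636). The share was 0.985% in ODD 1 and 0.348% in ODD 2, so the ODD libraries lay on both sides of the EVEN value. Peaks on the plastid genome went the other way, with 30 in EVEN 1 (0.145%) and 49 in LACZ 1 (0.387%). The cause was not tested.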

How the results depend on the processing

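With −log10 q of at least 5, EVEN peaks without LACZ were 82.2% of their list and LACZ peaks without EVEN 88.2%, the shares in ODD 2 were 59.3% (EVEN without LACZ), 86.7% (EVEN with LACZ) and 39.9% (LACZ without EVEN), summits in protein-coding genes were 68.8% and 68.5% of EVEN peaks without LACZ and LACZ peaks without EVEN, and genes with EVEN alone were 9.02%. In the same order, lists cut to equal length gave 79.3% and 81.4%, then 20.8%, 29.7% and 10.8%, then 76.8% for EVEN summits, and 19.1% of genes. Without pericentromeres the values were 84.0% and 75.3%, 57.8% and 68.7% for the EVEN classes in ODD 2, 89.1% and 86.3% for summits, and 29.3% of genes. An overlap of at least 50% of the shorter peak gave 84.3% and 77.2%, then 49.8%, 67.9% and 38.7%. Counting peaks within 500 bp as shared gave 68.3% and 57.9%, then 78.7%, 89.0% and 68.9%, and 71.0% for LACZ summits. Summit windows of 200 bp for every list gave 83.2% and 74.9%, then 53.5%, 66.0% and 38.8%. ODD 1 in place of ODD 2 gave 16.9%, 29.0% and 9.69%, and gene bodies alone gave 24.7% of genes. The order of the ODD shares held in 9 of 9 settings, and EVEN peaks without LACZ were above LACZ peaks without EVEN in protein-coding genes in 8 of 8, although with −log10 q of at least 5 the values lay within each other's intervals. Leaving out the mitochondrial insertion, an alternative chosen after seeing the data, kept all 8 values within their intervals. Shares thus depend on the rule far more than on counting error. No paired analysis was possible because EVEN and LACZ have 1 library each and no test was run, and for the same reason no replicate could be left out. Peak lists give no value where a library has no peak, so absence of a LACZ peak does not show absence of control signal, and unequal depth and fragment length cannot be told apart from the probes.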

Other observations

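Families taken by gene symbol were looked at after the values were seen, so their counts are descriptions with no test. Among 88 symbol families of at least 15 genes, the median share with EVEN peaks and no LACZ peak in the body or within 1 kb was 27.5%. The alpha-expansins, which loosen the cell wall during growth, had the highest share, with 16 of 23 EXPA genes (69.6%), 2 with both kinds, none with LACZ alone and 5 with neither. All 16 also had an ODD 2 peak and 8 had an ODD 1 peak, while 92.8% of all protein-coding genes have an ODD 2 peak and 48.9% an ODD 1 peak. The strongest EVEN peaks were at EXPA14 (22809359 to 22809685 of chromosome 5, fold 9.28), EXPA22 (7.88) and EXPA7 (5.41), and the lowest of the 16 had a fold of 2.89. The EXPA7 peak lay 190 bp from a LACZ peak of fold 7.74, and EXPA24 and EXPA25 share 1 peak, so the 16 genes are not 16 independent sites.

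Early nodulin-like genes, a family of phytocyanin-like proteins, came next with 13 of 22 ENODL genes (59.1%). Their strongest EVEN peaks were modest, from 4.99 at ENODL15 down to 2.63 at ENODL19. The GATA factors, Aux/IAA repressors and TCP factors each had 50%, with 11 of 22, 12 of 24 and 8 of 16 genes. The CIPK kinases followed with 10 of 21 (47.6%) and the AGP arabinogalactan proteins with 14 of 30 (46.7%). The related FLA family was below the median of the families, with 5 of 19 (26.3%).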
